A study of Mus musculus with 48 samples.

Results

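The comparison described here set the left kidneys of mice with mild acute kidney injury (20-minute ischemia) against their right kidneys, 3 days after the injury. It held 12 of the 48 kidneys of the series: 6 left kidneys labelled as 20-minute ischemia/reperfusion injury (IRI) on day 3 and 6 right kidneys labelled as their controls, a left and a right kidney from each of 6 mice, with the left and right kidney of a mouse sharing its number. All mice were young male C57BL/6 with no transgene or drug treatment named, and the tissue was renal cortex. According to the methods, the right kidney was taken out under pentobarbital anesthesia as the self-control before the left renal pedicle was clamped. The injured kidney was therefore a solitary kidney after surgery, and the ischemia cannot be told apart from the anesthesia, the operation, the loss of the right kidney or the hour of sampling. The labels nevertheless give the control kidneys the same sampling day as the left kidneys. The question was which genes the cortex transcribed differently 3 days after an injury that the study uses as its model of AKI with recovery.

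The cortex consists mostly of proximal tubules, which recover filtered solutes, draw most of their energy from fatty acid oxidation and secrete drugs and organic anions. When their blood supply is cut off and restored, injured tubule cells lose transporters and express genes such as Havcr1, Lcn2 and Krt20, and the kidney makes acute phase proteins that are otherwise secreted mainly by the liver. Surviving tubule cells then spread, divide and regain their differentiated functions. The kidney also has its own circadian clock, a loop in which the activators BMAL1 (Arntl), CLOCK and NPAS2 switch on their own repressors. Period and cryptochrome genes encode such repressors. The activators also switch on D-box genes such as Dbp, which are outputs of the loop.

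Expression was deposited as FPKM (sequenced fragments of a transcript, relative to its length and to all mapped fragments of the library) and was summed over the transcripts of a gene. The low values allowed an estimate of depth of 9450000 to 13850000 read pairs in the IRI kidneys and 11050000 to 14500000 in the controls. Each kidney is a separate library, and the replicates of a group come from different mice. Of 14247 genes tested with limma on log2(FPKM + 0.01), 333 were called higher (2.34% of the genes tested) and 247 lower (1.73%) in the IRI kidneys. A call required at least a 2-fold difference and an adjusted p under 0.05 by the Benjamini-Hochberg method. For list counts further on without a minimum fold or at an unadjusted p, the share over all genes tested is not given. Those list counts are descriptions only. The median log2 fold change of all genes tested was 0.02. All 6 IRI kidneys lay above all 6 controls in 189 of the genes called higher (1.33% of all genes tested), and all 6 lay below in 172 of those called lower (1.21%). IRI replicate 4 stood apart: its mean correlation with the other 5 IRI kidneys was 0.910, against 0.943 to 0.952 for those 5. It was the highest IRI kidney in 130 and the lowest in 99 of the 333 genes called higher. Over all 14247 genes tested it was the highest in 5723 and the lowest in 2791. Its ranks in the lists further on are to be read beside these counts. This kidney was thus the highest no more often among the genes called higher than over all genes. Without it 372 genes (2.62% of those tested) were called higher and 311 (2.19%) lower, of which 284 and 230 were also called with it. With the mouse as a block these counts were 283 (1.99%) and 233 (1.64%), and with a pseudocount of 1 FPKM in place of 0.01 they were 147 (1.03%) and 125 (0.877%). The proximal tubule, immune and other marker lists given further on describe the labelled tissue. All 25 proximal tubule genes were above 0 FPKM in all 12 kidneys. As the deposited values cover only transcripts that reached 0.5 FPKM in some library, a value above 0 cannot test the tissue label. In RNA from whole cortex, fewer cells of a type and less RNA per cell cannot be told apart.

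Acute phase genes had the highest median fold change of the lists with at least 5 tested members, and most of their products are plasma proteins released in inflammation. The list also held the intracellular signaling genes Stat3 and Socs3. Of the 13 tested, 11 were higher and none was lower in the 20-minute IRI kidneys, and their median log2 fold change was 3.89. The 3 fibrinogen chains rose together. Fga, the alpha chain (3:83026076-83033627, plus strand of GRCm38), lay between 60.7 and 574 FPKM in the IRI kidneys (median 184) and between 9.28 and 13.7 FPKM in the controls (median 11.4), so that the groups did not overlap. Its log2 fold change was 3.89 ± 0.44 (SE; limma adjusted p = 0.00015). The gamma chain gene Fgg rose from 3.93 to 6.11 FPKM in the controls to between 41.2 and 520 FPKM (log2 fold change 4.33 ± 0.50, adjusted p = 0.00016). The beta chain gene Fgb was the least abundant, at 1.71 to 11.1 FPKM in 5 IRI kidneys and 79.0 FPKM in IRI replicate 4, against 0.0946 to 0.494 FPKM in the controls (log2 fold change 4.32 ± 0.87, adjusted p = 0.005).

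The promoters of Fga and Fgb are shown because both hold the spaced half-sites to which STAT factors, the transducers of interleukin-6 signals, bind. The sequences are those of RefSeq on GRCm38.p6, read 5′ to 3′ on the strand of the gene and ending at the base before the GENCODE gene, which begins 77 bases before the RefSeq start in Fga, and capitals mark TTCNNNGAA.
Fga, 3:83025903-83026075, plus strand: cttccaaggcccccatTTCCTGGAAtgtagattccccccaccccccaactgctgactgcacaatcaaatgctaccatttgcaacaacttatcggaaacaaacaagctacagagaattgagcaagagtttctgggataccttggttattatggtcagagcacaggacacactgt
Fgb, 3:83049864-83050113, minus strand: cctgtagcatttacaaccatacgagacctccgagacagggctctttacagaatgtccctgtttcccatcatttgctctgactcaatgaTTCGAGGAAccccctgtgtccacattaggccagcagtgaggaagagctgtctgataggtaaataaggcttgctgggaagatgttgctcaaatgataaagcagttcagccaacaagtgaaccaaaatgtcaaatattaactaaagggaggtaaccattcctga
The match begins 234 bases before the RefSeq start in Fga and 162 bases before it in Fgb. Of 12 acute phase genes with an entry, 3 held TTCNNNGAA within 250 bases before the start (Fga, Fgb and Socs3), of which 2 were among the 9 called higher. The same letters, which read alike on both strands, were found in 7.02% of all 32851 windows. A match describes the letters only.

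Lcn2, which encodes the iron-siderophore binding protein NGAL and is measured in urine as a marker of AKI, lay at 2:32384633-32388252 on the minus strand. Its level was 12.8 to 304 FPKM in the IRI kidneys (median 36.7) and 0.0264 to 1.94 FPKM in the controls (median 1.02), with no overlap and a log2 fold change of 6.01 ± 0.98 (adjusted p = 0.0014). Serpina3n, a serine protease inhibitor (12:104406729-104414329, plus strand), was at 0.487 to 6.09 FPKM (median 3.54) against 0 to 0.0688 FPKM and had a log2 fold change of 6.17 ± 0.76 (adjusted p = 0.00023). Complement factor C3 (17:57203970-57228136, minus strand) lay between 17.2 and 80.8 FPKM in the IRI kidneys and within 2.87 to 3.17 FPKM in the controls. It was called with a log2 fold change of 3.65 ± 0.34 (adjusted p = 3.7e-05), and C4b, of the classical complement pathway, with 2.24 (adjusted p = 0.015). These 2 were the only ones called among the 15 genes of the complement list. The complement genes C1qa and C1qb, which were listed with the macrophage markers, were called higher too.

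Saa3, a serum amyloid A gene that is transcribed outside the liver, rose from at most 0.138 FPKM to 0.867 to 4.46 FPKM (adjusted p = 0.00098). Its relative Saa1 was listed at 0 in all controls and in 2 of the IRI kidneys and reached 5.19 FPKM in the others. Of the fits that left out a kidney, Saa1 was called only in those without IRI replicate 3 or IRI replicate 5, and its adjusted p reached 0.05 without IRI replicate 4 and 0.073 without IRI replicate 6. Reads shared between the Saa copies leave its value uncertain. Ceruloplasmin (Cp), the copper carrier and ferroxidase, rose from 5.48 to 8.20 FPKM to 12.8 to 25.6 FPKM with a log2 fold change of 1.5 ± 0.17 (adjusted p = 0.00012). Haptoglobin (Hp), which binds free hemoglobin, had a log2 fold change of 2.27 (adjusted p = 0.03, and 0.13 with a pseudocount of 1 FPKM), and Lbp, the lipopolysaccharide-binding protein, 1.20 (adjusted p = 0.0027). Not called were Stat3 itself (0.94, adjusted p = 0.0015) and its feedback inhibitor Socs3 (0.53, adjusted p = 0.69). IRI replicate 4 was the highest IRI kidney in 9 of the acute phase genes, and the summed level of the list was 1669 FPKM in it, against 212 to 664 FPKM in the other 5 and 40.3 to 61.7 FPKM in the controls. Without that kidney 10 of the genes were called higher, and without control replicate 1, 2, 4 or 6 the number was 9.

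Liver markers were examined beside this list. Of 10 such genes 7 had values in the table and were tested, and 2 were called higher: Apoc3, an apolipoprotein (log2 fold change 1.36), and Serpina1b (1.23), whose reads cannot be separated with certainty from those of its near-identical neighbours. Albumin (Alb), the most specific of them, had a log2 fold change of 0.56 (adjusted p = 0.14). Without IRI replicate 4, 4 of the liver genes were called higher. Their part in the result was not tested.

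**Figure D1:**
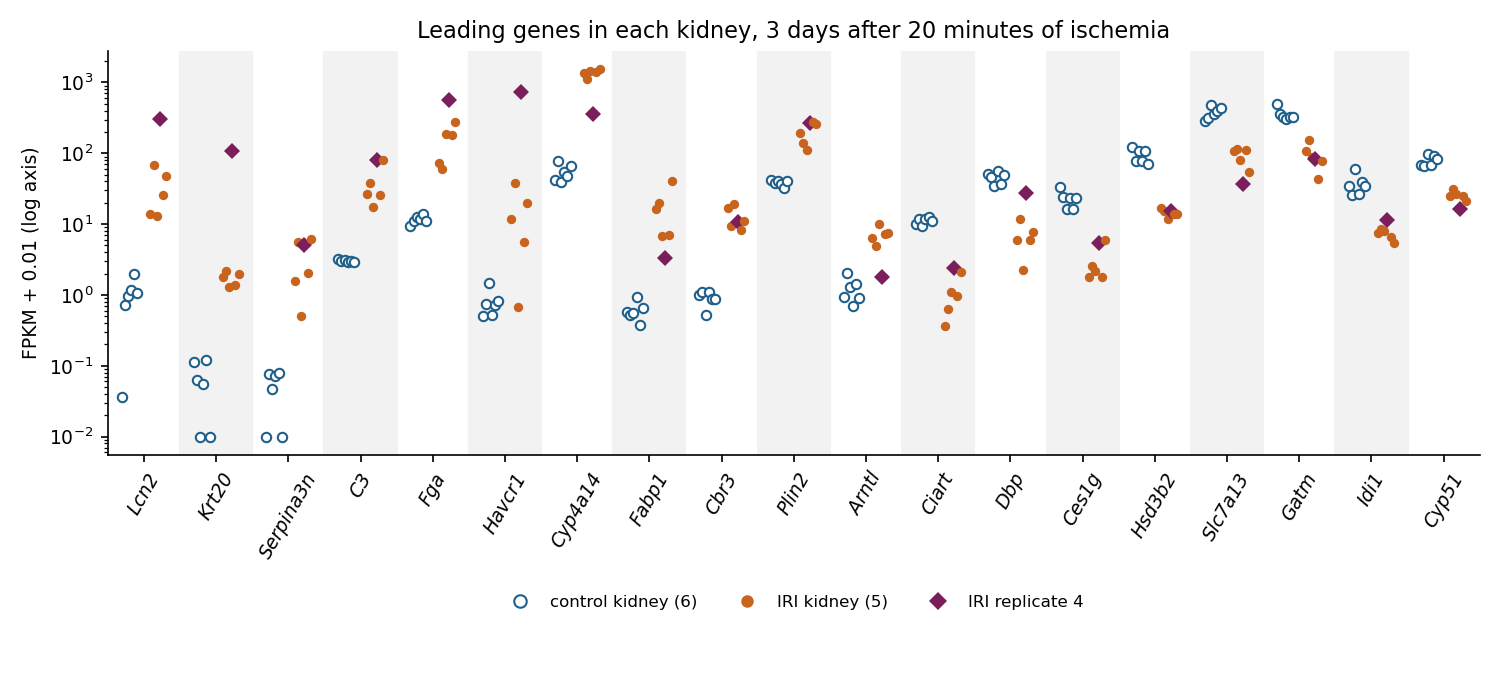
FPKM + 0.01 on a log axis for 19 genes of the report in each of the 12 kidneys, with controls as open circles, IRI kidneys as dots and IRI replicate 4 as a diamond. For Lcn2, Cyp4a14 and Hsd3b2 the 6 IRI kidneys sit wholly on one side of the controls, whereas Havcr1 of 1 IRI kidney (0.664 FPKM) falls among them.

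The second set of genes that rose were targets of PPARA, the nuclear receptor that fatty acids activate and that drives their oxidation. Of 22 listed targets of PPARA and enzymes of fatty acid oxidation, 10 were higher and none lower, with a median log2 fold change of 0.95. Cyp4a14, a fatty acid omega-hydroxylase (4:115486200-115496142, minus strand), was 358 to 1545 FPKM in the IRI kidneys (median 1384) against 39.1 to 77.9 FPKM in the controls (median 51.3), without overlap and with a log2 fold change of 4.36 ± 0.33 (adjusted p = 9.1e-06).

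Cyp4a10, a second hydroxylase of the same family, went from 137 to 243 FPKM in the controls to 336 to 1199 FPKM (log2 fold change 2.22, adjusted p = 0.00031). The Cyp4a genes are similar enough that some reads may have been assigned between them. Pdk4, the kinase that shuts pyruvate out of mitochondrial oxidation, rose from 4.76 to 9.78 FPKM to 21.3 to 141 FPKM (2.81 ± 0.36, adjusted p = 0.00031). The peroxisomal enzymes Ehhadh and Acaa1b both had a log2 fold change of 1.13, the carnitine carrier Slc25a20 1.12, and the acyl-CoA thioesterases Acot1 and Acot2 1.82 and 1.72. The genes of the mitochondrial beta-oxidation steps themselves differed less and were not called, among them Cpt2 (0.77), Cpt1a (0.23) and Acadm (-0.13), and Ppara had a log2 fold change of -0.06. At an adjusted p under 0.05 with no minimum fold, 16 of the 22 genes were higher.

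Fabp1 encodes the liver-type fatty acid binding protein, which delivers fatty acids to PPARA and is also measured in urine as an injury marker. It was 3.32 to 40.5 FPKM in the IRI kidneys (median 11.6) and 0.361 to 0.931 FPKM in the controls (median 0.555), with no overlap and a log2 fold change of 4.29 ± 0.51 (adjusted p = 0.00018). Its promoter is printed because it alone among the 17 genes of this list with a RefSeq entry held the direct repeat that PPARA binds together with the retinoid X receptor, 2 copies of AGGNCA spaced by 1 base, here on the opposite strand and in capitals.
Fabp1, 6:71199629-71199826, plus strand: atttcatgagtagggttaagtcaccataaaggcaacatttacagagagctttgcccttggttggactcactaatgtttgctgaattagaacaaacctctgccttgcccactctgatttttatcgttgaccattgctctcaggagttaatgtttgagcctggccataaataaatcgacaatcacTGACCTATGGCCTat
The printed stretch ends before the GENCODE gene, which begins 52 bases before the RefSeq start, and the repeat lies 67 to 55 bases before the RefSeq start. It was searched on both strands within 250 bases before that start and occurred in 0.338% of all windows.

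In the PPARA list IRI replicate 4 ranked opposite to its rank among the acute phase genes: it was the lowest IRI kidney in 20 of the 22 genes. The median left to right log2 ratio of the list was 0.19 in mouse 4 and between 0.86 and 1.28 in the other 5 mice. For Acot1 the kidney (13.6 FPKM) lay below all controls (14.6 to 25.8 FPKM), while the other 5 lay between 85.0 and 114 FPKM. With this kidney left out the same number of genes, 10, was called higher, and likewise with any other kidney left out. Subunits of oxidative phosphorylation gave 0 of 20 called by limma in this fit or in any alternative, with 0 higher and 4 lower at an unadjusted p under 0.05 and a median log2 fold change of -0.03.

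Among the markers of injured proximal tubule, 5 of 16 rose and none fell, with a median log2 fold change of 0.58. Krt20 (11:99428403-99438150, minus strand), the cytokeratin gene the study follows, had a log2 fold change of 6.37 ± 1.08 (adjusted p = 0.0018), and its call was lost with a pseudocount of 1 FPKM (adjusted p = 0.069). Havcr1, the gene of kidney injury molecule 1, was 728 FPKM in IRI replicate 4 and 0.664 to 38.5 FPKM in the other 5 IRI kidneys, against 0.50 to 1.45 FPKM in the controls (median 0.720). The lowest IRI kidney thus fell among the controls, and the left kidney was higher in 5 of 6 mice. The log2 fold change of 4.51 ± 1.23 was called (adjusted p = 0.024), but not with the mouse as a block or without control replicate 1 (adjusted p = 0.051). Sox9, a transcription factor of regenerating tubule cells, rose from at most 0.236 FPKM to 0.292 to 5.44 FPKM (2.84, adjusted p = 0.0039). Plin2, a coat protein of lipid droplets, was the most even of these genes, at 111 to 276 FPKM in the IRI kidneys against 32.4 to 41.4 FPKM (log2 fold change 2.35 ± 0.21, adjusted p = 2.9e-05). Sprr2f, a small proline-rich protein of cornified epithelia with near-identical copies, was listed at 0 in all controls and at 0.0892 to 15.5 FPKM in the IRI kidneys.

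The other markers of this list, among them Vcam1 (0.55), Cdh6 (0.31), Vim (0.20) and Cd44 (0.69), were not called. IRI replicate 4 was the highest kidney in 15 of the 16 genes. The list's median left to right log2 ratio was 1.99 in mouse 4 and -0.19 to 0.89 in the other mice, and 2 of the genes were called with a pseudocount of 1 FPKM. Among 9 genes whose products are measured in urine, Lcn2, Fabp1, Havcr1 and osteopontin (Spp1, log2 fold change 1.63, adjusted p = 0.032) were higher. Without control replicate 1 only 2 of these 4 calls remained, since Havcr1 and Spp1 then missed the threshold. Timp2 (0.04, adjusted p = 0.94) and Igfbp7 (0.06, adjusted p = 0.66), the cell cycle arrest markers of urinary tests, were not called. Of the other kidney cytokeratins, Krt18 (0.98), Krt19 (0.67), Krt8 (0.54) and Krt7 (0.34) were not called, although Krt18 had an adjusted p of 0.037 and passed a fold of 2 when IRI replicate 1, IRI replicate 3 or control replicate 2 was left out.

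**Figure D2:**
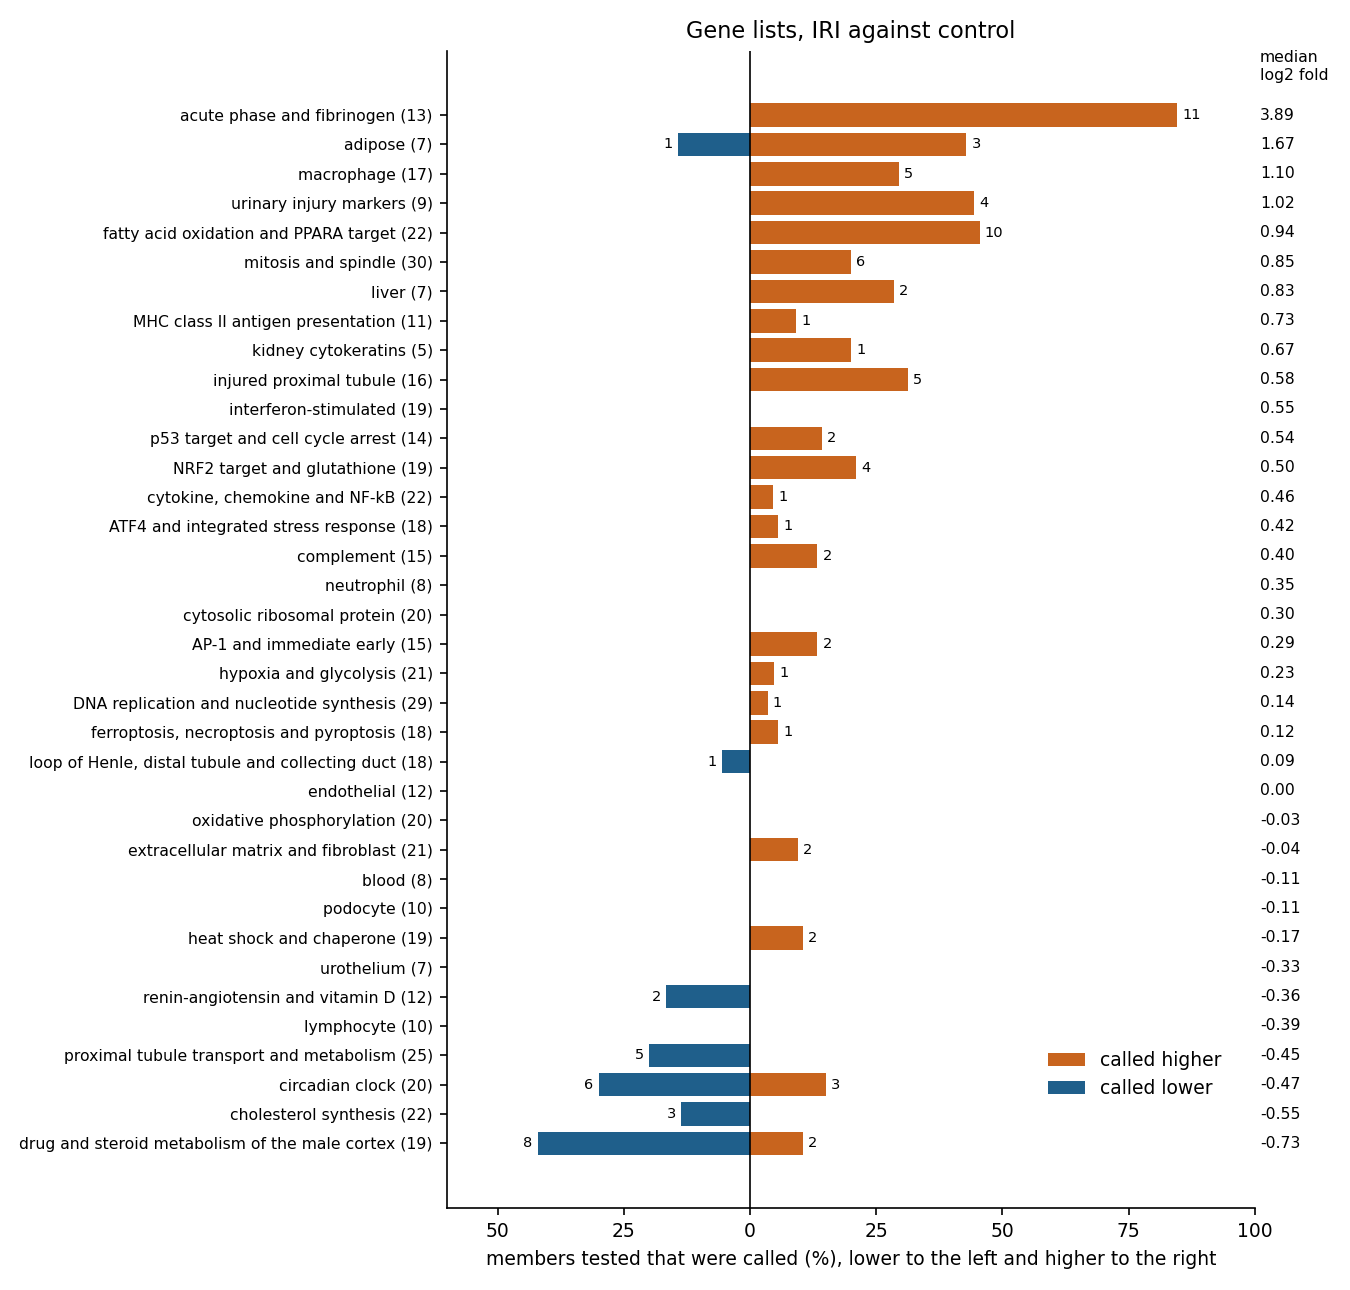
For each gene list with at least 5 tested members, the percent of tested members called higher (to the right) and lower (to the left) in 20-minute IRI kidneys, with the counts and the list's median log2 fold change printed beside the bars. Acute phase genes (11 of 13 higher) and fatty acid genes (10 of 22 higher) lead on the one side, and drug and steroid metabolism (8 of 19 lower) on the other.

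Genes of the circadian clock differed in both directions. Of 20 clock genes, 3 were higher and 6 lower in the IRI kidneys (median log2 fold change -0.47). Higher were the activators Arntl and Npas2 and the repressor of D-box genes Nfil3. Arntl (7:113207465-113314126, plus strand) was 1.80 to 9.97 FPKM in the IRI kidneys (median 6.75) and 0.684 to 2.01 FPKM in the controls (median 1.10), where only IRI replicate 4 overlapped with the controls. Its log2 fold change was 2.30 ± 0.38 (adjusted p = 0.0015). An exact two-sided permutation test of 6 against 6 kidneys, which ignores the pairing by mouse, gave p = 0.00433. The left kidney was higher in all 6 mice, so exact sign flips over the mice gave their smallest possible p, 0.0312. As Arntl was called in the same kidneys, neither value is further evidence. Npas2 lay between 1.40 and 5.05 FPKM against 0.295 to 0.806 FPKM (2.57 ± 0.35, adjusted p = 0.0004), and Nfil3 between 3.49 and 13.1 FPKM against 1.46 to 3.47 FPKM (1.80 ± 0.33, adjusted p = 0.0029), both without overlap.

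The 6 genes called lower were Ciart, Dbp, Per3, Bhlhe41, Nr1d2 and Per2. Ciart, a transcriptional repressor that binds the BMAL1 and CLOCK pair (3:95878503-95882251, minus strand), was 0.355 to 2.40 FPKM in the IRI kidneys (median 1.02) and 9.32 to 12.5 FPKM in the controls (median 11.4). The groups lay far apart, and the log2 fold change was -3.41 ± 0.39 (adjusted p = 0.00014). Groups without overlap always give the smallest exact p that the design allows. These are 0.00216 by permutation of 6 against 6 kidneys and 0.0312 by sign flips over the 6 mice. As lack of overlap was a condition for naming Ciart among the largest falls, these 2 values are no further evidence. Dbp, the D-box activator, was 2.23 to 27.7 FPKM against 34.4 to 57.1 FPKM (-2.56 ± 0.45, adjusted p = 0.0023). Per3 fell by 1.46 on the log2 scale (adjusted p = 0.00044), Bhlhe41 by 1.44 (0.0049 adjusted p, under a fold of 2 with a pseudocount of 1 FPKM), Nr1d2 by 1.05 (adjusted p = 0.00031) and Per2 by 1.01 (adjusted p = 0.01). Nr1d2 and Per2 stood close to the 2-fold limit: Nr1d2 fell short of it without IRI replicate 3 (log2 fold change -0.96), and Per2 reached no more than -0.81 with a pseudocount of 1 FPKM and fell short of it in 6 of the fits that left out a kidney. Tef, a relative of Dbp, was 27.9 to 39.7 FPKM against 57.5 to 70.3 FPKM, with an adjusted p of 8.9e-05 and a log2 fold change of -0.96, just short of the limit. The remaining genes, Clock (0.02), Cry1 (0.55), Cry2 (-0.25), Per1 (-0.27) and 6 others, were not called.

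The Ciart promoter holds 3 copies of the E-box CACGTG, the element that BMAL1 with CLOCK or NPAS2 binds, and is given for that reason with the E-boxes in capitals.
Ciart, 3:95882252-95882478, minus strand: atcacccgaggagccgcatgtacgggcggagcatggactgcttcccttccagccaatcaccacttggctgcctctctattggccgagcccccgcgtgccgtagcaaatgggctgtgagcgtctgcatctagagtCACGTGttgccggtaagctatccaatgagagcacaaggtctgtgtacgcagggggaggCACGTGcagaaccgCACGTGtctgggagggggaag
The copies begin 116, 58 and 44 bases before the RefSeq start, which lies 23 bases after the end of the printed stretch. CACGTG, which reads the same on both strands, was present within 250 bases before the start in 5 of 16 clock genes with an entry (Bhlhe41, Ciart, Cry1, Per1 and Tef) and in 6.02% of all windows. It was found in 2 of the 5 genes called lower that had an entry and in 0 of the 3 called higher.

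The clock genes that were called had the same direction in each mouse. The left kidney was higher for Arntl, Npas2 and Nfil3 and lower for all 6 falling genes in 6 of 6 mice. As these genes were called in the same mice, this describes the calls and adds no support to them. The median left to right log2 ratio of the genes called lower was -0.75 in mouse 4 and -1.35 to -2.16 in the other 5 mice. Over all 20 clock genes the median ratio lay between -0.37 and -0.59 in the 6 mice.

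**Figure D3:**
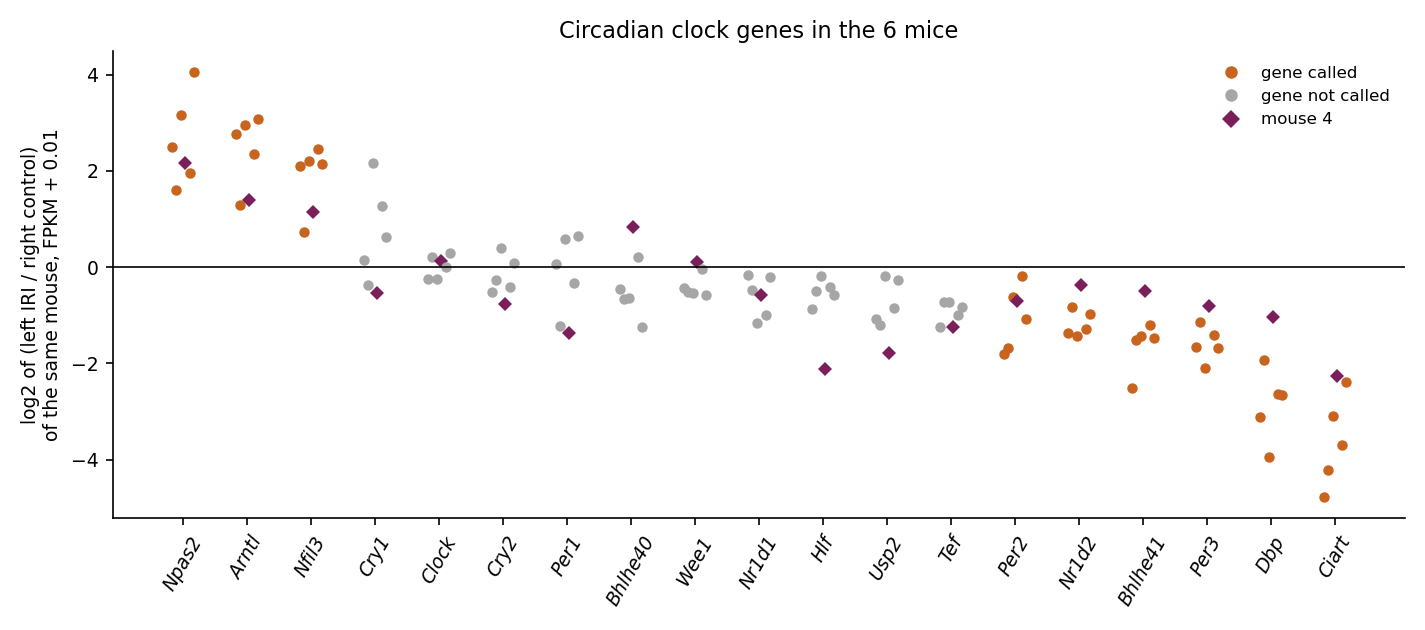
Left to right log2 ratio of FPKM + 0.01 for 19 circadian clock genes in each of the 6 mice, with mouse 4 as a diamond and a line at 0 for equal levels. All 6 mice lie above 0 for Arntl, Npas2 and Nfil3 and below 0 for Ciart, Dbp and Per3.

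Genes of the differentiated proximal tubule were lower. Of 25 genes of transport and metabolism, 5 fell, none rose, and the median log2 fold change was -0.45. Slc7a13, the aspartate and glutamate transporter of the late proximal tubule, was 36.8 to 117 FPKM in the IRI kidneys (median 95.5) and 288 to 482 FPKM in the controls (median 375), with a log2 fold change of -2.25 ± 0.27 (adjusted p = 0.00019). Gatm, the first enzyme of creatine synthesis, was 43.4 to 152 FPKM against 305 to 494 FPKM (-2.03 ± 0.24, adjusted p = 0.00018). The groups overlapped for neither gene.

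The endocytic receptor megalin (Lrp2) fell from 156 to 194 FPKM to 68.4 to 108 FPKM (log2 fold change -1.06, adjusted p = 0.00022), the lactate cotransporter Slc5a12 by 1.39 and the organic ion transporter relative Slc22a30 by 1.55. Other members of the list differed little, such as the organic anion transporters Slc22a6 (-0.05) and Slc22a8 (-0.09) and the gluconeogenic enzyme Fbp1 (-0.01). Without a minimum fold 11 of the 25 were lower at an adjusted p under 0.05, among them the phosphate transporter Slc34a1 (-0.80), cubilin (Cubn, -0.63) and the transcription factor Hnf4a (-0.28), and 1 was higher, the gluconeogenic enzyme gene Pck1 (0.74, adjusted p = 0.047). Klotho (Kl), the coreceptor for FGF23 of the tubule, fell from 147 to 219 FPKM to 66.8 to 96.2 FPKM (-1.06 ± 0.11, adjusted p = 5.9e-05), but fell just short of the 2-fold limit without control replicate 1.

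A list of drug and steroid metabolism genes of the cortex followed: of 19, 8 were lower and 2 higher, with a median of -0.74. The list also held the vitamin D hydroxylases Cyp24a1 and Cyp27b1, the transporter Slc7a12 and the prolactin receptor Prlr, none of which was called. All mice were male, so a relation to sex was not tested. Hsd3b2 (3:98709255-98724543, minus strand), a steroid dehydrogenase and isomerase, had the smallest adjusted p of this list. It was 11.8 to 16.8 FPKM in the IRI kidneys (median 14.8) and 69.8 to 122 FPKM in the controls (median 92.7), with a log2 fold change of -2.66 ± 0.14 (adjusted p = 5.8e-07). The IRI kidneys hardly varied, and IRI replicate 4 (15.5 FPKM) lay among the others. Slc22a28, a solute carrier of the organic ion family, was 20.2 to 33.5 FPKM against 80.3 to 134 FPKM (-1.98 ± 0.15, adjusted p = 9.1e-06), and the cytochrome P450 Cyp2j13 was 25.6 to 44.8 FPKM against 76.7 to 114 FPKM (-1.52 ± 0.13, adjusted p = 2.9e-05). Also lower were the organic anion transporter Slco1a1 (-1.63), the medium-chain acyl-CoA synthetase Acsm3 (-1.32), the glycosyltransferases Ugt2b38 (-1.24) and Ugt8a (-1.09) and the aldo-keto reductase Akr1c21 (-1.07, and -0.99 without IRI replicate 4).

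Higher in this list were Cyp2d9 and Ugt1a2. Cyp2d9 lay between 113 and 211 FPKM in 5 IRI kidneys and at 29 FPKM in IRI replicate 4, against 29 to 51.9 FPKM in the controls (log2 fold change 1.35, adjusted p = 0.032). Both calls were lost without control replicate 1 or any of several other kidneys, with an adjusted p of up to 0.072 for Cyp2d9 and 0.097 for Ugt1a2, which shares exons with the other Ugt1a genes.

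Cholesterol synthesis genes are targets of the sterol-regulated factor SREBP2. Of 22, 3 were lower and none higher (median -0.55), and 10 were lower at an adjusted p under 0.05 without a minimum fold. Idi1, the isopentenyl diphosphate isomerase, fell from 25.8 to 59.1 FPKM to 5.47 to 11.5 FPKM (-2.18 ± 0.21, adjusted p = 4.6e-05). Cyp51, the lanosterol demethylase, was 16.3 to 31.4 FPKM against 67.0 to 97.0 FPKM (-1.72 ± 0.15, adjusted p = 2.9e-05). Without IRI replicate 4, 5 of the list were called lower, and with other kidneys left out as few as 2.

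**Figure D4:**
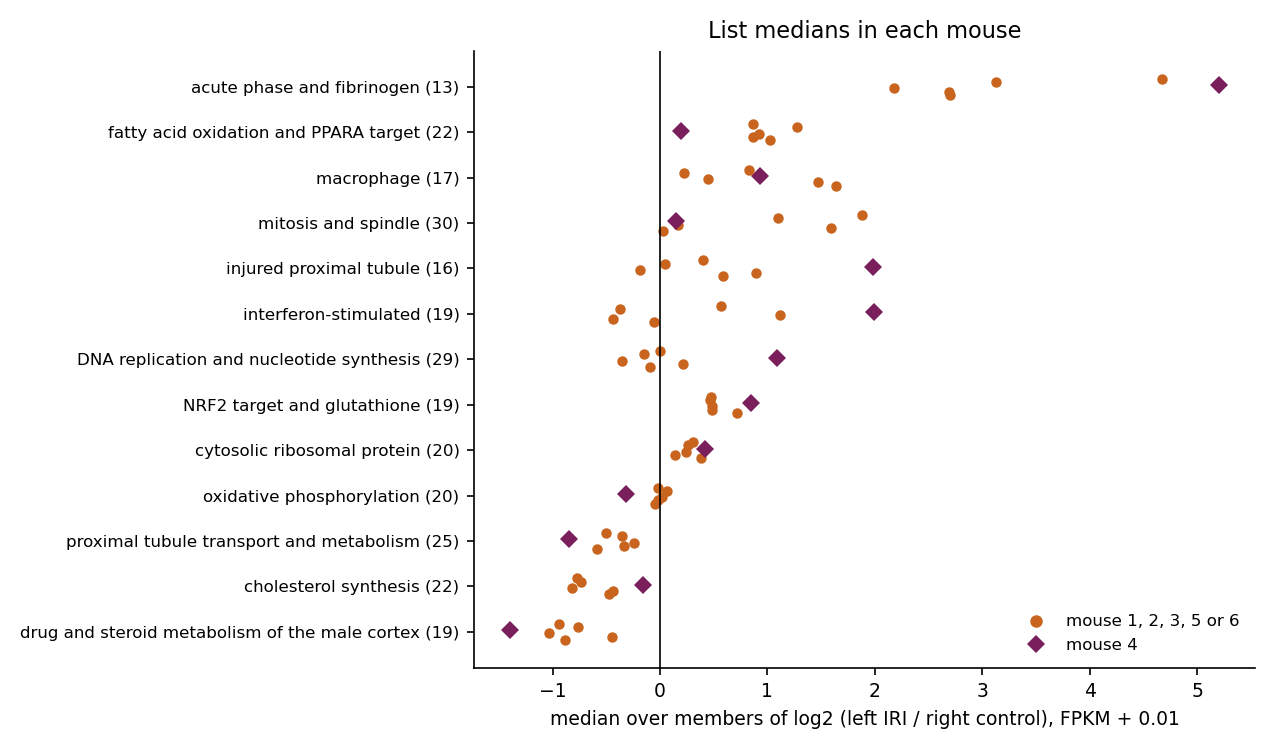
Median left to right log2 ratio of the members of 13 gene lists in each of the 6 mice, with mouse 4 as a diamond and a line at 0. Mouse 4 is highest for acute phase genes (5.21, others 2.18 to 4.67) and lowest for fatty acid oxidation and PPARA target genes (0.19, others 0.86 to 1.28).

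The remaining large falls belonged to genes of different kinds. Ces1g, a carboxylesterase that cleaves lipid esters and drugs, was 1.76 to 5.94 FPKM against 16.1 to 33.4 FPKM (log2 fold change -2.94 ± 0.32, adjusted p = 0.00012). Smcp, known from sperm mitochondria, was 0.127 to 0.418 FPKM against 2.1 to 4.98 FPKM (-3.45 ± 0.32, adjusted p = 3.7e-05). Pde6a (-2.70), the phosphodiesterase of rod photoreceptors, Proz (-2.65), protein Z of coagulation, Tbx10 (-2.59), a T-box factor, Mmp13 (-2.73), a collagenase, and the predicted genes Gm853 (-3.02) and Gm906 (-2.76) completed the 10 largest falls together with Ciart and Hsd3b2. Mmp13 was under a fold of 2 with a pseudocount of 1 FPKM.

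Of the largest rises not yet given, Kcnip2, a potassium channel subunit, was 2.66 to 11.5 FPKM against 0 to 1.66 FPKM (log2 fold change 5.78, adjusted p = 0.0078), and Apoc2, the activator of lipoprotein lipase, 0.845 to 1.48 FPKM against 0 to 0.270 FPKM (5.47, adjusted p = 0.001). Gstp3, a glutathione transferase with near-identical copies, was 1.43 to 4.82 FPKM against 0 to 0.374 FPKM (5.62, adjusted p = 0.0025). As controls of these genes reached 0, the size of these log2 fold changes depends on the pseudocount. That of Apoc2 lay between 1.04 and 6.14 over the alternatives, with a limma adjusted p of at most 0.0065. Il1f6, interleukin-36 alpha, reached 17.9 FPKM in IRI replicate 4 and 0.122 to 0.866 FPKM in the others, and was not called with a pseudocount of 1 FPKM (adjusted p = 0.22).

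Few members of the stress pathway lists were called. Of 19 genes of the NRF2 antioxidant response, 4 rose (median 0.50). Cbr3, a carbonyl reductase, was 8.15 to 19.5 FPKM against 0.518 to 1.10 FPKM (log2 fold change 3.75 ± 0.24, adjusted p = 4.2e-06), Nqo1, the quinone reductase, 83.3 to 114 FPKM against 28.7 to 53.2 FPKM (1.25, adjusted p = 9.4e-05) and Srxn1, sulfiredoxin, rose by 1.49 (adjusted p = 0.00015). Heme oxygenase 1 (Hmox1, 1.09) lost its call without IRI replicate 4 (0.92), IRI replicate 5 or control replicate 3. The glutathione synthesis gene Gclm (-0.77) and the cystine carrier Slc7a11 (-0.11) were not called.

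Of 14 targets of p53, Cdkn1a and Bbc3 rose. Cdkn1a, the cell cycle inhibitor p21, was 13.3 to 82.4 FPKM in the IRI kidneys (median 36.6) and 2.96 to 6.42 FPKM in the controls (median 4.54), without overlap (2.94 ± 0.41, adjusted p = 0.00053). Bbc3, the apoptosis gene PUMA, had a log2 fold change of 1.80 (adjusted p = 0.018) and was under a fold of 2 with a pseudocount of 1 FPKM. Of the integrated stress response the serine synthesis gene Psat1 rose (1.63, adjusted p = 0.00053), as the only 1 of 18.

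Markers of cell division rose in part. Of 30 mitosis genes 6 were called higher (Ccnb2, Cdc20, Plk1, Aurka, Tpx2 and Anln), none lower, and the median log2 fold change was 0.85. Cdc20, the activator of the anaphase-promoting complex, was 1.40 to 3.89 FPKM against 0.808 to 1.32 FPKM, without overlap (1.06, adjusted p = 0.0085), and the spindle factor Tpx2 0.475 to 1.54 FPKM against 0.233 to 0.547 FPKM (1.26, adjusted p = 0.012). The count rested on single kidneys: it was 2 without IRI replicate 6, 3 without IRI replicate 2 or control replicate 6, and 10 without IRI replicate 3. It was 2 with the mouse as a block and 0 with a pseudocount of 1 FPKM. The mice differed, with list medians of the left to right log2 ratio of 1.59, 1.10 and 1.88 in mice 2, 5 and 6 and of 0.03, 0.17 and 0.15 in mice 1, 3 and 4. Of 29 DNA replication genes, Gins2 alone was called (1.49, adjusted p = 0.002), and the median was 0.15.

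Macrophage markers were higher in the IRI kidneys: of 17, 5 rose (C1qa, C1qb, Trem2, Lyz2 and Cd14) and none fell, with a median of 1.10. C1qa, a chain of complement C1q made by resident macrophages, was 17.2 to 33.2 FPKM against 5.82 to 14.9 FPKM, without overlap (1.25 ± 0.23, adjusted p = 0.0028). C1qb was called with 1.16 (adjusted p = 0.002), and Trem2, a lipid receptor of macrophages, with 4.19 (adjusted p = 0.0046), with 5 of the 6 controls listed at 0. The lysozyme gene Lyz2 was not called without IRI replicate 4 (adjusted p = 0.05) or with the block (adjusted p = 0.053). The summed FPKM of the list was 83.5 to 174 in the IRI kidneys and 38.4 to 73.5 in the controls, so that those sums did not overlap. The pan-macrophage genes Adgre1 (0.74), Csf1r (-0.49) and Cd68 (0.81) were not called. Ctss, the cathepsin of antigen presentation, rose (1.68, adjusted p = 0.00036) as the only 1 of 11 genes of MHC class II presentation. The part of macrophages in the rise of complement, lipid and acute phase genes was not tested.

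Other cell types and programs gave few calls. None of the markers of podocytes (10 tested), endothelium (12), neutrophils (8 of 12 tested), lymphocytes (10 of 15), urothelium (7) or blood (8) was called by limma; at an unadjusted p under 0.05 the numbers higher and lower were 1 and 3 for podocytes, 2 and 0 for endothelium, 1 and 0 for neutrophils, 0 and 1 for lymphocytes, 0 and 0 for urothelium and 0 and 2 for blood. With IRI replicate 1 left out 1 neutrophil gene was called higher. The summed level of the neutrophil markers was 2.11 to 26.1 FPKM in the IRI kidneys and 4.22 to 8.95 FPKM in the controls. Of 7 adipose markers 3 rose and 1 fell, and the 3 that rose were coat or fusion proteins of lipid droplets, Plin1 (3.34), Plin4 (2.84) and Cidec (4.58), while Adipoq, the gene that defines fat cells, was not called (1.67, adjusted p = 0.38). Plin1 was near the floor, at 0.0572 to 0.282 FPKM in the IRI kidneys and at most 0.0324 FPKM in the controls. With a pseudocount of 1 FPKM only Plin4 of the 3 was called, and the log2 fold change of Plin1 was 0.18. Of 18 genes of the distal nephron the calcium-binding protein Pvalb alone was called (-1.07, adjusted p = 0.033), and this call was lost with the block (adjusted p = 0.058), without IRI replicate 4 (log2 fold change -0.74) and without each of several other kidneys (adjusted p up to 0.064).

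Of 21 genes of extracellular matrix and fibroblasts, 2 rose, Lox (1.56), which cross-links collagen, and Timp1, a metalloproteinase inhibitor, and the median was -0.04. Timp1 was 51.9 FPKM in IRI replicate 4 and 0.819 to 7.54 FPKM in the other 5, against at most 0.448 FPKM in the controls (4.48 ± 1.10, adjusted p = 0.015, and 0.069 with the block). Of 22 cytokine and NF-kB genes only the adhesion molecule Icam1 was called (1.17), and not without IRI replicate 4 (0.93), the highest kidney in 19 of the 22. The chemokine gene Ccl12 (log2 fold change -4.90, adjusted p = 0.063) and the interleukin-1 beta gene Il1b (-1.45, adjusted p = 0.14) were called lower with the block (adjusted p of 0.022 and 0.017) and without IRI replicate 4 (0.00031 and 0.03). Neither was called lower with a pseudocount of 1 FPKM, where Ccl12 had a limma adjusted p of 0.5. Over the alternatives the log2 fold change of Ccl12 lay between -6.57 and -0.78. Of 19 interferon-stimulated genes none was called by limma (1 at an unadjusted p under 0.05, and up to 1 called with a kidney left out), and IRI replicate 4 was the highest IRI kidney in all 19. All 20 cytosolic ribosomal protein genes had positive log2 fold changes with a median of 0.30, and 17 of them an adjusted p under 0.05, but none reached a fold of 2.

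The same test was run in the 20-minute model on day 1 and in the severe model (40-minute ischemia) on day 3, each with its own 6 IRI and 6 control kidneys. On day 1, 170 genes (1.19%) were higher and 63 (0.442%) lower, and after 40 minutes 2187 (15.3%) and 853 (5.98%). Of the 333 genes higher here, 75 were also higher on day 1 (22.5% of the 333 and 44.1% of the 170) and 253 after 40 minutes (76.0% and 11.6%). Of the 247 lower genes, 43 were lower on day 1 (17.4% and 68.3%) and 170 after 40 minutes (68.8% and 19.9%). Called in the opposite direction were 0 and 1 of them on day 1 and 1 and 9 after 40 minutes, for the higher and the lower genes.

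The change itself differed between the 2 ischemia times on day 3 in many genes. The log2 fold change after 20 minutes was above that after 40 minutes in 1286 genes (8.99% of 14301 tested) and below it in 2915 (20.4%), by the interaction test in limma at an adjusted p under 0.05. When the median of each library was set equal, the split was 1938 above and 2093 below, as that scaling moved the median difference by 0.15 on the log2 scale. Ccl7, a monocyte-attracting chemokine, Nppc, the C-type natriuretic peptide, and Depdc1a, a mitosis gene, stood lowest: Depdc1a was listed at 0 in all 12 kidneys of the mild model on day 3 and at 1.15 to 2.39 FPKM in the 40-minute IRI kidneys (difference -7.40, adjusted p = 6.3e-10). The largest positive differences were those of genes that were low or listed at 0 in the 40-minute IRI kidneys. Pvalb was 3.95 to 18.6 FPKM in the 20-minute IRI kidneys and at most 1.14 FPKM in the 40-minute IRI kidneys (difference 8.75 ± 1.13, adjusted p = 8.7e-06). Adgrg4, an adhesion G protein-coupled receptor, was 0.601 to 1.78 FPKM against 4.40 to 5.90 FPKM in the controls, fell by 2.21 on the log2 scale, and had a difference of 6.10 (adjusted p = 1e-05). Fga differed by 1.98 (adjusted p = 0.0069), with a fold change of 3.89 here and 1.91 after 40 minutes, both on the log2 scale. Lcn2 (difference -1.19, adjusted p = 0.43) and Cdkn1a (0.14, adjusted p = 0.86) were not called.

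Clock genes stood out in this comparison by their sign. Ciart, lower here (-3.41), was higher after 40 minutes (2.45), a difference of -5.86 ± 0.68 (adjusted p = 2.8e-06), and Dbp differed by -5.01 (adjusted p = 2.8e-06), Per2 by -2.83 (adjusted p = 9e-06), Npas2 by 3.43 (adjusted p = 8.5e-06) and Arntl by 3.22 (adjusted p = 1.7e-05). In all, 15 of the 20 clock genes differed, 3 positively and 12 negatively, and 13 to 16 did so under the alternatives. The control kidneys themselves were at different levels: Ciart was 9.32 to 12.5 FPKM in the controls here, 0.530 to 1.43 FPKM in the 40-minute controls and 0.412 to 6.97 FPKM in the day 1 controls. For Dbp the control ranges were 34.4 to 57.1 FPKM, 1.12 to 3.49 FPKM and 2.75 to 37.4 FPKM. Arntl ran the other way, with controls at 0.684 to 2.01 FPKM here and 7.79 to 13.8 FPKM in the 40-minute model. In the IRI kidneys the levels lay closer, at 1.80 to 9.97 FPKM here and 3.96 to 7.43 FPKM after 40 minutes for Arntl. The difference between control groups was not tested, and the labels give no hour of sampling.

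Between day 3 and day 1 of the 20-minute model, 6 genes had a more positive (0.042% of 14271) and 6 a more negative log2 fold change on day 3 (0.042%). At an unadjusted p under 0.05 these numbers were 593 and 1420. The clock genes Arntl (difference 3.55 ± 0.69, adjusted p = 0.045), Ciart (-5.28 ± 0.95, adjusted p = 0.045), Per2 (-2.88, adjusted p = 0.045) and Tef (-1.41, adjusted p = 0.028) were among them. None of the 12 was called with the mouse as a block or with scaled libraries, where the smallest adjusted p was 0.2 and 0.054, and without IRI replicate 4 of day 3 the counts were 101 and 187. None of the acute phase, PPARA target or injured tubule genes was called by this test in limma, for example Lcn2 (0.59, adjusted p = 0.88), Krt20 (-0.58, adjusted p = 0.90) and C3 (1.38, adjusted p = 0.22), with standard errors of 1.38, 1.59 and 0.49.

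**Figure D5:**
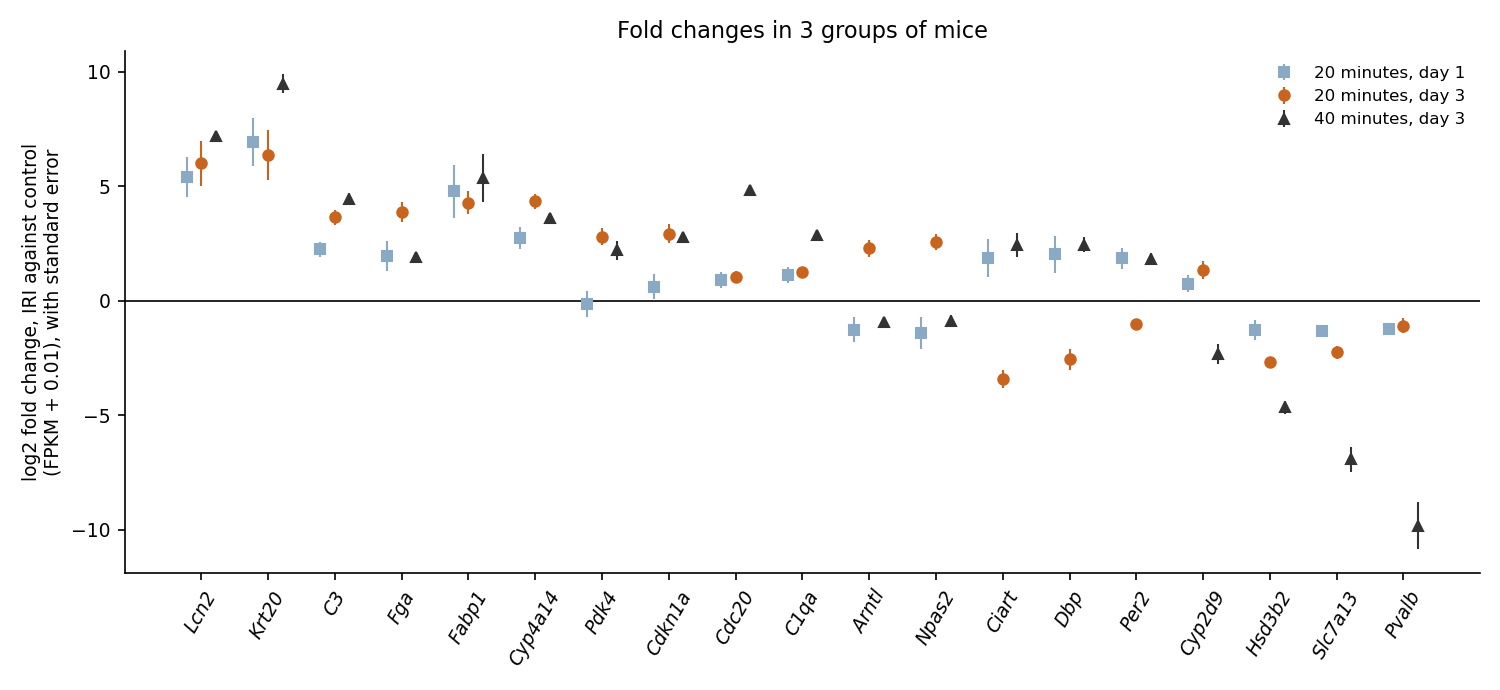
Log2 fold change of IRI against control on the log2(FPKM + 0.01) scale, with its standard error as a bar, for 19 genes in the 20-minute model on day 1, the 20-minute model on day 3 and the 40-minute model on day 3. Ciart lies at -3.41 in the 20-minute model on day 3 and at 2.45 in the 40-minute model on the same day, while Lcn2 lies above 5 in all 3.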

How the data were processed

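RNA of the renal cortex was measured in 48 libraries, of which the 12 of the 20-minute model on day 3 are the subject here and the 24 of its day 1 and of the 40-minute model on day 3 serve as comparison. According to the methods, the authors enriched mRNA, used FastQC 0.11.7 for read filtering and HISAT2 2.1.0 for alignment (to GRCm38), and Ballgown for expression. What the authors deposited is FPKM for each Ensembl transcript, so that neither read counts nor mapping rates could be tested. Each of the 33953 transcripts reached 0.5 FPKM in at least 1 library. FPKM was summed per symbol through GENCODE M21, which held 33871 of the transcripts, giving 14320 features, and summed to 393560 to 421059 per library. Depth was estimated from the smallest steps between low values.

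Groups came from the titles. Genes whose mean reached 0.01 FPKM were fitted as log2(FPKM + 0.01) in limma 3.58.1 (R 4.3.3; lmFit and eBayes with trend, two-sided, Benjamini-Hochberg over all genes tested), with only the compared groups in a fit. The log2 fold changes of genes near 0 depend on the pseudocount. The median of the acute phase list was 3.89 with 0.01 FPKM and 1.38 with 1 FPKM. Calls needed a 2-fold difference together with an adjusted p under 0.05, and interactions the adjusted p alone. The steps were tested on simulated data. Tables and figures used Python 3.11.15, numpy 2.4.6, pandas 2.3.3 and matplotlib 3.10.9.

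The comparison, the 38 gene lists and the tests were chosen with earlier results of these data known, so lists are given by counts and medians without a test. Named were the 10 largest rises and 10 largest falls among called genes without overlap and with at least 1 FPKM in the higher group, in each list the 2 called members with the smallest adjusted p, the 5 kidney cytokeratins with Havcr1, Lcn2, Timp2 and Igfbp7, and the 4 most positive and 4 most negative called differences of each interaction. Other members were named to describe their list, after their values were seen. Some members of the lists are counted but not reported here by name.

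Left and right kidneys of a number come from the same mouse. Their deviations from the group means correlated by 0.0026 to 0.12 (median 0.049), with the own right kidney ranking first for 4 of 6. The mouse as a block was an alternative, besides other pseudocounts, filters, median scaling, robust eBayes and each kidney left out. Promoters came from RefSeq on GRCm38.p6.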

Additional observations from a re-analysis of the deposited data

Results flagged for a closer look

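In 21 of 160 groups of 6 kidneys, formed from the named genes in IRI and in control kidneys, the highest or lowest kidney lay apart from the nearest other kidney by more than the share of the range that Dixon's test allows at 95%. The 5% of groups that this test flags by chance holds for normally distributed values. Here FPKM entered without logarithms and the genes are not independent, so 5% is no yardstick for this count. IRI replicate 4 was that kidney in 13 of the 21. It was the highest for Krt20 (107 FPKM), Krt18 (48.3 FPKM), Krt8 (203 FPKM), Havcr1 (728 FPKM), Lcn2 (304 FPKM), Timp1 (51.9 FPKM), Sprr2f (15.5 FPKM), Il1f6 (17.9 FPKM), Ccl7 (2.99 FPKM), Hspb1 (48.9 FPKM), Hspb8 (6.68 FPKM) and Nppc (0.0835 FPKM), and the lowest for Cyp4a14 (358 FPKM). Among the other IRI kidneys, replicate 5 was the highest for Krt7 (15.6 FPKM) and replicate 6 for Tbx10 (1.13 FPKM). In the controls, replicate 1 was the highest for Gatm (494 FPKM) and Psat1 (7.99 FPKM), replicate 3 the highest for Havcr1 (1.45 FPKM) and the lowest for Igfbp7 (472 FPKM), replicate 4 the highest for Mmp13 (2.78 FPKM) and replicate 5 for Slc16a3 (0.218 FPKM).

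The log2 fold change on day 3 differed from that on day 1 of the 20-minute model, by the interaction in limma, for Arntl (3.55), Ypel2 (2.07), Ndrg1 (1.74), Kctd17 (1.36), Ciart (-5.28), Per2 (-2.88), Tef (-1.41) and Ppp1r16b (-0.92), with adjusted p of 0.028 for Tef and 0.045 for the others. None of these 8 differences was called with the mouse as a block or with scaled libraries. On day 3 the log2 fold change after 20 minutes differed from that after 40 minutes for Serpina1c (9.63, adjusted p = 0.00021), Pvalb (8.75, adjusted p = 8.7e-06), Slc22a26 (6.12, adjusted p = 7e-05), Adgrg4 (6.10, adjusted p = 1e-05), Nppc (-8.64, adjusted p = 7.5e-06), Ccl7 (-8.05, adjusted p = 0.0026), Depdc1a (-7.40, adjusted p = 6.3e-10) and Gm49339 (-7.36, adjusted p = 0.00064). Serpina1c and Slc22a26 have near-identical neighbours, and their reads may be shared.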

How the results depend on the processing

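The number of genes called was 333 higher and 247 lower. It was 147 and 125 with a pseudocount of 1 FPKM, which removes calls of genes at low levels, and ranged from 265 to 372 higher and from 218 to 311 lower with 1 kidney left out. With the mouse as a block it was 283 and 233. Of the 67 named genes that were called, 52 kept the call with a pseudocount of 1 FPKM, 62 with the block, 63 without IRI replicate 4 and 53 in every fit without 1 kidney, and none turned direction; the block changed the calls of 5 of them (Havcr1, Timp1, Tpx2, Slc16a3 and Pvalb) and no other call among these 67. Of the other called genes given by name, Lyz2, Ccnb2, Aurka, Anln, Ugt1a2 and Tap2 also lost the call with the block. The differences between day 3 and day 1 of the 20-minute model, 6 positive and 6 negative, became 8 and 12 with a pseudocount of 1 FPKM, 0 and 0 with scaled libraries, 0 and 0 with the replicate block, and 101 and 187 without IRI replicate 4. Between the ischemia times on day 3, 1286 positive and 2915 negative differences became 1938 and 2093 with scaled libraries. The cause of these changes was not tested. FPKM carry no counts, so the counting error of low genes is not known.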

Other observations

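Several gene families not described above held called genes. The families were picked after their values had been seen, so their counts are descriptions. Of 4 Aldh1a genes, which oxidize retinal and other aldehydes, 2 rose. Aldh1a7 was 31.4 to 52.5 FPKM in the IRI kidneys (median 46.3) and 2.38 to 3.72 FPKM in the controls (median 3.41), with a log2 fold change of 3.80 ± 0.14 (limma adjusted p = 1.9e-08), and its close relative Aldh1a1 was 15.5 to 30.9 FPKM against 1.30 to 1.89 FPKM (3.70 ± 0.18, adjusted p = 3.8e-07). The groups lay apart for both genes, and the 2 are similar enough to share reads. Of 5 perilipins, coat proteins of lipid droplets, 4 rose, with Plin5 at a log2 fold change of 1.61 (adjusted p = 0.009). With a pseudocount of 1 FPKM the number was 3, as Plin1 lost its call. Of 9 Ugt1a glucuronosyltransferases, which share their last exons, 4 rose and none fell. Of 4 Ugt2b genes, 3 fell and none rose. Of 10 genes of MHC class I presentation 5 rose, led by the peptide transporter gene Tap1 (1.75, adjusted p = 0.0084), but only Tap1 and Tap2 without IRI replicate 4.

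In other families the called genes fell. Of 22 Slc22a genes, carriers of organic ions, 6 fell and none rose, among them Slc22a7 (13.5 to 47.7 FPKM against 53 to 127 FPKM, log2 fold change -1.76, adjusted p = 0.0017) and Slc22a22 (-1.89, adjusted p = 0.00022). Of 8 Nat8 N-acetyltransferases, 4 fell, led by Nat8f6 (17.9 to 37.1 FPKM against 71.3 to 82.2 FPKM, -1.67, adjusted p = 3.6e-05). Of 10 genes that turn tryptophan into NAD through kynurenine, 2 fell: Acmsd, which diverts the pathway away from NAD (10.2 to 18.1 FPKM against 46.2 to 87.5 FPKM, -1.98 ± 0.19, adjusted p = 3.9e-05), and Afmid (-2.13, adjusted p = 0.0052), which forms kynurenine.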
